A study of Mus musculus with 30 samples.

Results

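The genes described here are 40 genes of cell division and DNA replication, chosen by symbol, among the 39179 gene identifiers counted in the mouse ventral prostate (VP). All 40 were found in the count files, and all 40 passed the filter on low counts that left 16605 genes for testing. Male C57BL/6 mice received, from weaning, diets of normal fat content in which the fat was soybean oil (SO), linseed oil (LO) or pork fat, that is lard (PF). Each diet was given for 12 or 32 weeks, with 5 mice per diet and time, so that 30 mice fell into 6 groups. Every mouse ate 1 of the 3 fats, so no group on another chow serves as a common baseline, and each difference is relative to another fat or to the other time. Messenger RNA of the VP was sequenced, and between 27590631 and 41301707 read pairs per mouse were assigned to genes. The library of each mouse was a separate sample, identified by diet, mouse number and time.

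A dividing cell first licenses its replication origins, where Cdc6 and Cdt1 load the MCM helicase (Mcm2 to Mcm7) onto DNA. The E-type cyclins then start replication, and Pcna, the sliding clamp of the polymerases, together with the nucleotide enzymes Rrm2 and Tyms, serves DNA synthesis. Cyclin A and the B-type cyclins with Cdk1 drive the entry into mitosis, the kinases Aurka, Aurkb, Plk1 and Ttk and the checkpoint proteins Bub1, Bub1b and Mad2l1 act on the spindle and its attachments, and Cdc20 and Ube2c work with the anaphase-promoting complex. E2f1 drives genes of replication and Foxm1 genes of mitosis, while Mki67 encodes the antigen Ki-67 that is stained to find cycling cells. The epithelium of the adult mouse prostate renews itself slowly, so that few of its cells are in cycle at any time.

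The cell division genes were present at low levels and ranged widely between single mice. The score used here is the mean of the 40 genes on the log2 scale of CPM, the counts of a library divided by its scaled total. It ranged from 0.952 in mouse 3 of the LO group at 12 weeks to 3.20 in mouse 4 of the SO group at 32 weeks. SO at 32 weeks had the highest mean level for 37 of the 40 genes, and LO at 12 weeks the lowest for 30. None of the 40 genes passed the test between diets, at either time, where at most 0.012% of all genes did. Between times 1 gene, Mcm4, passed it, in the SO groups, where 6.46% of all genes did.

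Sums of luminal and of seminal vesicle genes were looked at first. They do not tell the VP from other lobes of the prostate. The summed level of 8 luminal genes of the prostate lay between 2748 and 10095 CPM over the 30 mice, and 8 genes of the seminal vesicle, the gland next to it, summed to at most 0.337 CPM. The libraries of the mice numbered 1 stood apart from the others: with a term for that number in the fit, 6200 of 16605 genes (37.3%) differed. The numbers of genes passing the test and the medians are therefore also given without these 6 mice, in the closing section. RNA of the whole VP was measured, and a smaller share of dividing cells and less of these RNAs per cell cannot be told apart.

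Levels between genes were compared per length, as CPM per kilobase of exon (RPKM), averaged over the 30 mice. Pcna was the most abundant, at 12.8 RPKM, followed by Rrm2 at 5.90 and Mcm6 at 5.38. The kinase Ttk was the least abundant at 0.189 RPKM, next to Bub1 at 0.251 and the spindle motor Kif23 at 0.277. The 8 genes of origin licensing lay between 0.463 (Cdc6) and 5.38 RPKM (Mcm6), whereas the 4 mitotic kinases lay between 0.189 and 0.834 RPKM. Mitotic genes were also found among the more abundant ones, with Top2a, the topoisomerase that untangles DNA strands, at 3.42 RPKM, Mki67 at 2.06, Cdc20 at 1.85, Bub1b at 1.82 and Ccnb2 at 1.69. The counts behind the lowest levels were small, with 5 read pairs of Bub1 in its lowest library and 112 in its highest.

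Mki67 (GRCm38 chromosome 7, 135689784 to 135716361, minus strand) shows the range of single mice. At 12 weeks its levels were 9.47, 28.96, 3.52, 16.6 and 9.90 CPM in LO, 23.7, 26.6, 27.7, 16.2 and 8.99 CPM in SO, and 15.5, 13.8, 23.8, 19.1 and 27.2 CPM in PF, in the order of the mouse numbers. At 32 weeks they were 19.7, 22.2, 16.4, 10.04 and 35.3 CPM in LO, 21.5, 22.2, 25.7, 55.6 and 30.7 CPM in SO, and 18.6, 21.1, 20.1, 15.7 and 16.8 CPM in PF. The PF mice at 32 weeks lay close together and all below the SO mice of that time, while the range of the LO mice took in that of the PF mice and reached into that of the SO mice. From the lowest to the highest of the 30 mice, Mki67 differed 15.8-fold.

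Ccnb1, the cyclin B1 that brings Cdk1 to mitosis, had the widest range of the 40, 22.4-fold. In LO at 12 weeks it was at 1.38, 5.24, 0.360, 2.84 and 1.09 CPM, and in SO at 32 weeks at 2.27, 3.09, 3.17, 8.06 and 4.41 CPM. The lowest value, 0.360 CPM, stood for 10 read pairs, so that its own counting error was large. The median range over the 40 genes was 6.03-fold, 10 genes exceeded 10-fold, and 5 stayed under 2-fold, namely Mcm4, Mcm7, Mcm2, Tyms and Pcna, all of them genes of replication.

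The same few mice held the extremes for most genes. Mouse 3 of LO at 12 weeks was the lowest of the 30 for 27 of the 40 genes, and mouse 4 of SO at 32 weeks the highest for 27. Within LO at 12 weeks, mouse 2 was the highest for 38 genes and mouse 3 the lowest for 29. Within LO at 32 weeks, mouse 5 was the highest for 36 and mouse 4 the lowest for 34. PF at 32 weeks had mouse 1 at the top for 33 genes. The map of the 40 genes in the 30 mice shows these mice as columns of mostly 1 colour, running from the cyclins to the spindle proteins. Single genes are exceptions, such as Bub1b in mouse 3 of LO at 12 weeks.

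**Figure D1:**
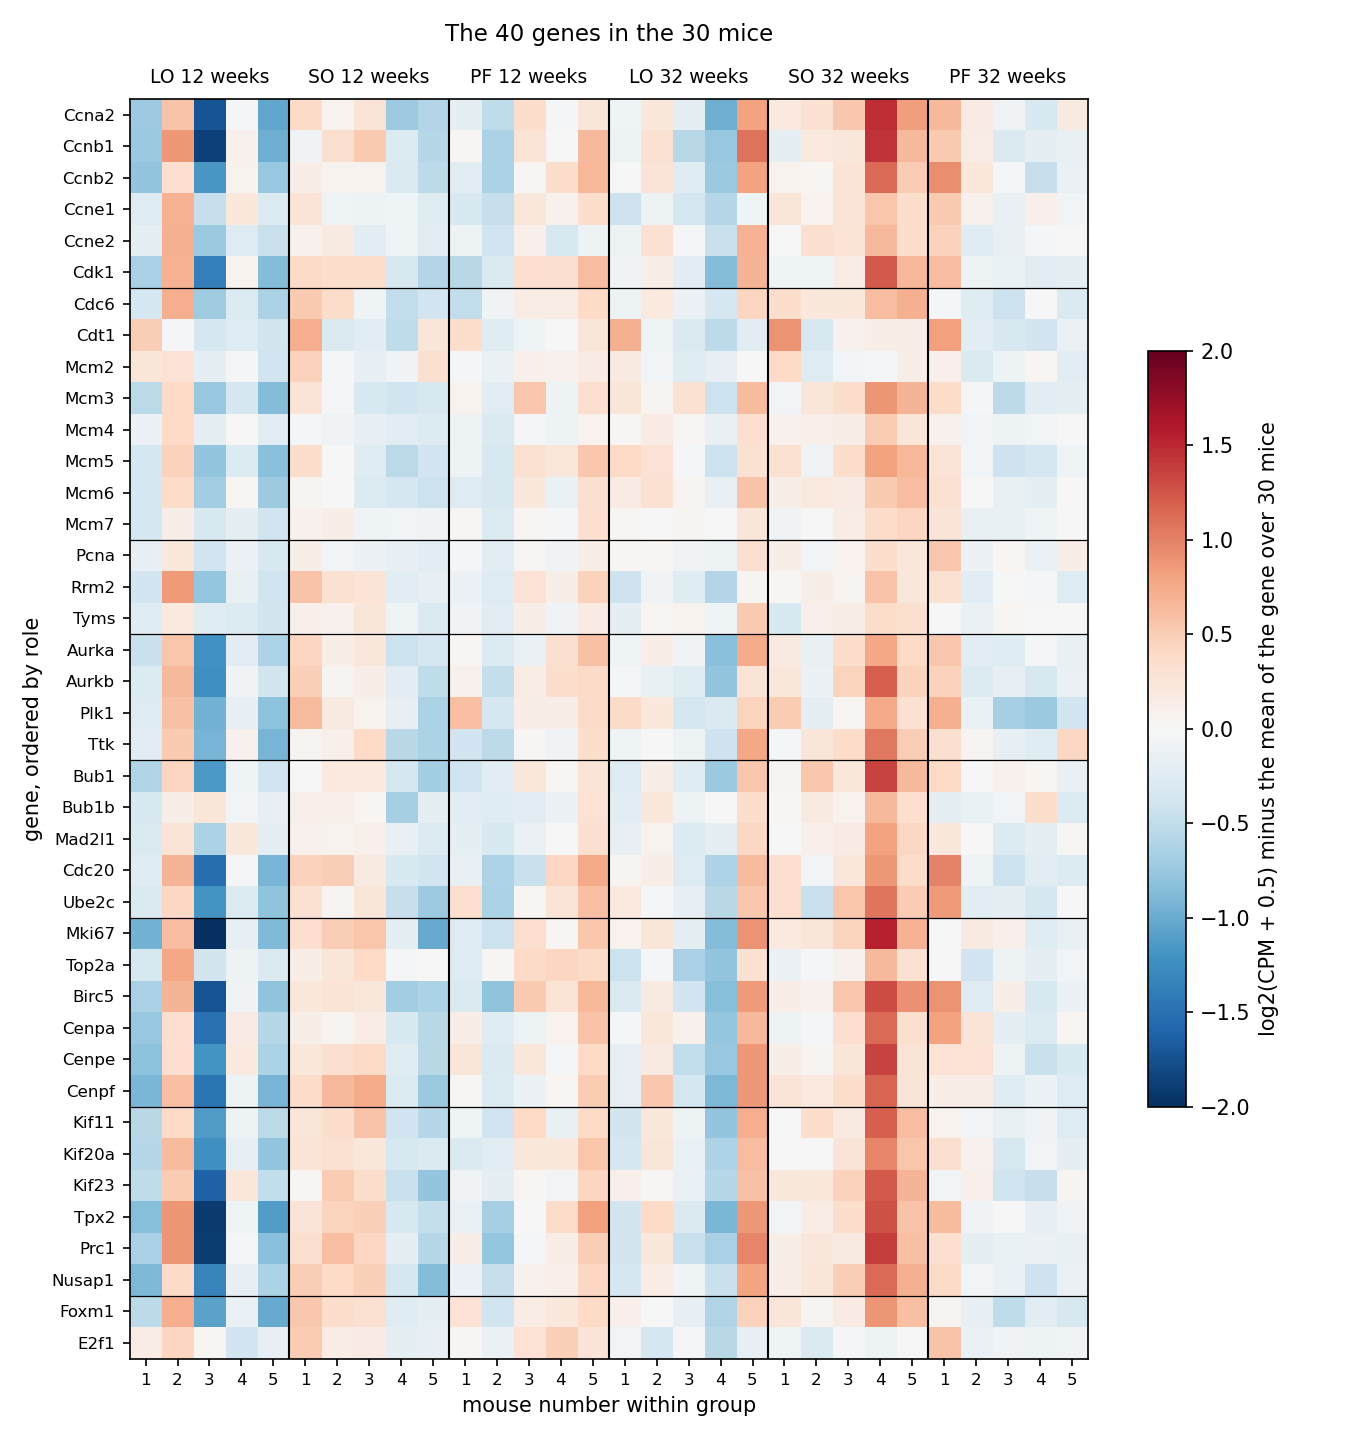
Level of each of the 40 genes (rows, ordered by role, with lines between roles) in each of the 30 mice (columns, by mouse number within the 6 groups), as log2(CPM + 0.5) minus the mean of the gene over all mice. Mouse 3 of LO at 12 weeks is blue and mouse 4 of SO at 32 weeks is red for nearly all genes, while Cdt1 is red in the mice numbered 1.

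The genes moved together between mice of a group. After the group means were taken out, the level of a gene and the mean of the other 39 correlated over the 30 mice with a median r of 0.914. The correlation exceeded 0.8 for 34 of the 40 genes. It was highest for Tpx2, a spindle assembly factor (r = 0.973, rho = 0.952), Ccna2 (r = 0.971, rho = 0.975) and Cdk1 (r = 0.968, rho = 0.951). The points share their libraries and the scaling of each library, so the values are given as a description. Without the pair of mice at the extremes, mouse 3 of LO at 12 weeks and mouse 4 of SO at 32 weeks, the median r was 0.891 and 33 genes exceeded 0.8.

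Only 4 of the 40 genes had an r under 0.6. They were E2f1 (0.545), the checkpoint protein Bub1b (0.399), Mcm2 (0.360) and Cdt1 (0.271). Bub1b differed from its checkpoint partner Bub1 in the mouse with the lowest score: in LO at 12 weeks Bub1b was at 6.09, 8.37, 9.17, 7.39 and 6.78 CPM, and Bub1 at 0.486, 1.52, 0.180, 0.911 and 0.638 CPM. Mouse 3 thus had the highest Bub1b and the lowest Bub1 of its group. Because the genes move together, the number of genes that lie on 1 side of a comparison cannot be read as that many separate observations.

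The spread between mice of a group was larger for these genes than for the genome as a whole in all 6 groups. On the log2 CPM scale the median SD of the 40 genes was 0.806 in LO at 12 weeks, 0.450 in SO and 0.365 in PF at 12 weeks, and 0.523 in LO, 0.428 in SO and 0.302 in PF at 32 weeks. Over all 16605 genes the median SD was between 0.209 and 0.267 in the 6 groups. LO at 12 weeks was the group of widest spread for 35 of the 40 genes, and PF at 32 weeks the narrowest for 22. Within LO at 12 weeks the spindle motors and microtubule proteins had a median SD of 0.995, the genes of origin licensing 0.450, and the 3 genes of DNA and nucleotide synthesis 0.237. No test was made of the difference in spread, which rests on 5 mice a group. Low counts widen the SD of the mitotic genes on this scale, and their part in it was not tested.

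**Figure D2:**
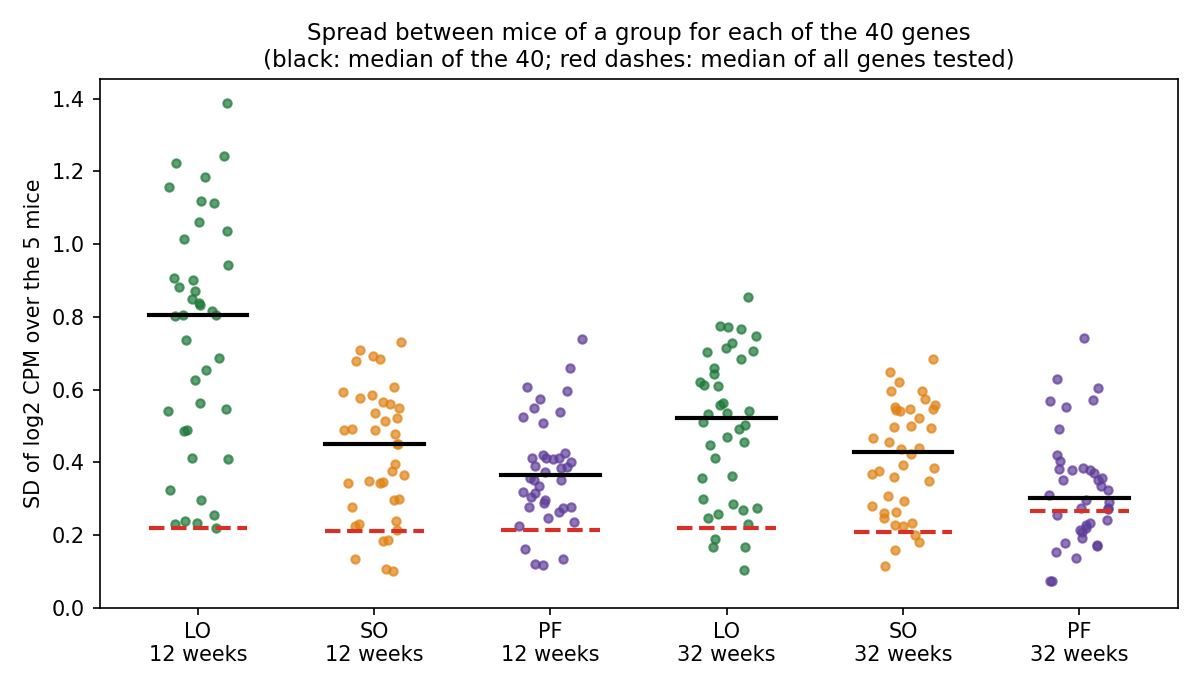
SD of log2 CPM over the 5 mice of each group (y axis) for each of the 40 genes (points), with the median of the 40 (black line) and the median of all genes tested (red dashes). The median of the 40 lies at 0.806 in LO at 12 weeks and at 0.302 in PF at 32 weeks, and the red dashes stay between 0.209 and 0.267.

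Many promoters of cell division genes carry a CCAAT box, read by the factor NF-Y, a cell cycle homology region (CHR), read by the DREAM and MuvB complexes, or a site for E2F factors. Since most of the genes moved together, their promoters were searched for TTTGAA (CHR), CCAAT, and the E2F forms TTTGGCG as well as TTTCCCG, then TTTCGCG and the fourth form TTTGCCG, on both strands. The windows searched were the 250 bases before the RefSeq start on GRCm38.p6, and 33 of the 40 genes had one. The 50 bases after the start were not searched. CCAAT was present in 25 of the 33 windows (75.8%), against 34.5% of the 27025 windows of all genes. CHR was present in 24.2% against 16.3%, E2F letters in 21.2% against 5.63%, and CHR with CCAAT in 24.2% against 5.73%. The 98 windows of further cell cycle genes held CCAAT in 56.1%, CHR in 24.5%, E2F letters in 25.5% and CHR with CCAAT in 17.3%, so that the shares of CHR and E2F in the 33 windows were no higher than in those of other cell cycle genes. Of the 7 windows of licensing genes, 4 held E2F letters. Of the 6 windows of chromosome and centromere genes, 1 did. A match is a run of letters, not a site shown to be bound, and no match says only that these letters are not in the window.

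The 150 bases before the start are shown for a pair of B-type cyclins and Cdk1, which moved with the score, and for a pair of MCM genes. Cdt1 is shown as the gene with the lowest r (0.271), for which the mice numbered 1 stood apart. It was added after its values were seen. Capitals mark the matches, on either strand, so that ATTGG is CCAAT on the other strand and CGCCAAA is TTTGGCG. They lie on GRCm38.p6 at chr13:100786487-100786636 (Ccnb1, minus strand), chr9:70421555-70421704 (Ccnb2, minus strand), chr10:69352913-69353062 (Cdk1, minus strand), chr8:75109359-75109508 (Mcm5, plus strand), chr1:128359706-128359855 (Mcm6, minus strand) and chr8:122567865-122568014 (Cdt1, plus strand).
Ccnb1: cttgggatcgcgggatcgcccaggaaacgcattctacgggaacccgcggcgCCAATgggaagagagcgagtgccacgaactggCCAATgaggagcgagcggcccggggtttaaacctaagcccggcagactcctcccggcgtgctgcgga
Ccnb2: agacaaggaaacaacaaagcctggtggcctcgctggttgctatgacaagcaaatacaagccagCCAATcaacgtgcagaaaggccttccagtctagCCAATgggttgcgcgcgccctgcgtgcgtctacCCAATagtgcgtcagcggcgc
Cdk1: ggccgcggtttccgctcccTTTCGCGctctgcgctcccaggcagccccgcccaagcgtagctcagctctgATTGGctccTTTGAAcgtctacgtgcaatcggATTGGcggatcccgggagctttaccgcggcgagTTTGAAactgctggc
Mcm5: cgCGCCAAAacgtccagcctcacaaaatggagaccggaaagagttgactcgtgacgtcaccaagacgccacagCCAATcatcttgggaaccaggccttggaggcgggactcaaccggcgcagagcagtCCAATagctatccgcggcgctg
Mcm6: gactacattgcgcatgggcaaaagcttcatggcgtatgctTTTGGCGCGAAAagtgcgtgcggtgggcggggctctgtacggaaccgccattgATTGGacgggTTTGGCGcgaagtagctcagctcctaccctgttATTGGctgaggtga
Cdt1: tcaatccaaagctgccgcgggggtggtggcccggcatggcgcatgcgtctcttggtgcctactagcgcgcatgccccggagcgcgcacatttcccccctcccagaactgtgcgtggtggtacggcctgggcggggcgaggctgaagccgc
Ccnb1 had 2 CCAAT boxes and Ccnb2 had 3, and the CHR letters of Ccnb2 lay outside the stretch shown. Cdk1 had 2 CHR matches, 2 CCAAT boxes and 1 E2F match. Mcm5 had 1 E2F match and 2 CCAAT boxes. Mcm6 had 3 E2F matches, of which the first and second overlap in 1 run, and 2 CCAAT boxes. Cdt1 had none of these letters in its window.

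The score of each mouse is given before the comparisons. At 12 weeks it was 1.73, 2.80, 0.952, 2.15 and 1.49 in LO, 2.54, 2.45, 2.42, 1.87 and 1.74 in SO, and 2.15, 1.81, 2.37, 2.34 and 2.69 in PF. At 32 weeks it was 2.16, 2.37, 2.02, 1.58 and 2.82 in LO, 2.37, 2.31, 2.52, 3.20 and 2.76 in SO, and 2.67, 2.16, 2.03, 2.02 and 2.12 in PF. The SO mice at 32 weeks held the highest score of all and no score under 2.31, but every group overlapped every other group it was compared with.

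**Figure D3:**
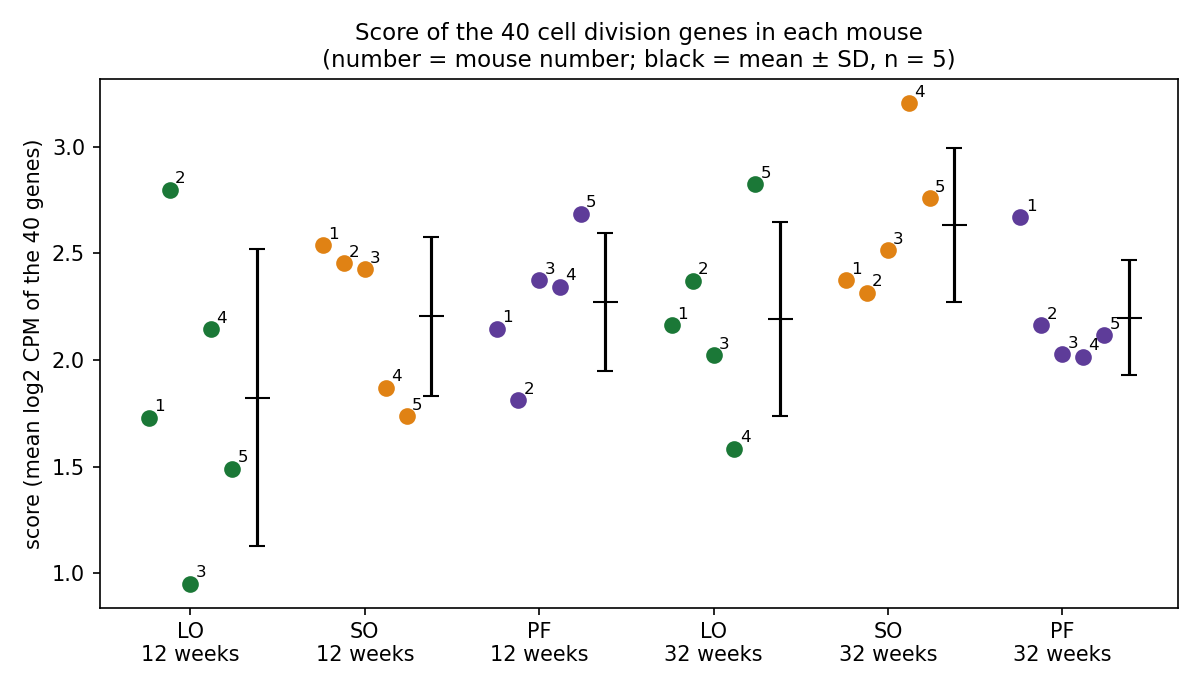
Score (y axis, mean log2 CPM of the 40 genes) of each mouse, marked by its number, in the 6 groups (x axis), with the mean ± SD of each group in black (n = 5). The means run from 1.82 in LO at 12 weeks to 2.63 in SO at 32 weeks, and the single mice of all groups overlap.

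At 12 weeks the mean score was 1.82 ± 0.70 in LO, 2.20 ± 0.37 in SO and 2.27 ± 0.32 in PF (SD, n = 5). Between PF and LO, 0 of the 40 genes passed the test (adjusted p under 0.05, edgeR), where 0.012% of all genes did, and the median log2 fold change of the 40 was 0.38, against -0.0023 over all genes. At an unadjusted p under 0.05, Mcm3 and Mcm7 were higher in PF, while 3.70% of all genes were. Mcm3, a subunit of the helicase, was at 6.68, 5.29, 9.37, 5.85 and 8.09 CPM in PF and at 4.20, 8.43, 3.52, 4.89 and 3.22 CPM in LO. The groups overlapped through mouse 2 of LO, and the log2 fold change was 0.54 (SE 0.25, edgeR adjusted p = 0.592). Mcm7 had a log2 fold change of 0.25 (SE 0.12, edgeR adjusted p = 0.593).

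The size of this difference moved with single LO mice. Without mouse 2 of LO the median log2 fold change of PF against LO was 0.77, without mouse 3 it was 0.18, without mouse 5 it was 0.25, and without mouse 5 of PF it was 0.23. Mouse 2, with the high values, also had the lowest summed level of the 8 luminal genes of all 30 mice, 2748 CPM against a median of 6276 CPM in its group, and the part of this in its values was not tested. PF and SO at 12 weeks differed by a median log2 fold change of 0.06, with 27 genes higher and 13 lower in PF, 0 genes passing the test (0% of all genes passed) and 0 at an unadjusted p under 0.05, where 7.87% of all genes were. The direction of this median changed with single mice, to -0.07 without mouse 5 of PF (14 higher, 26 lower), -0.04 without mouse 5 of SO (15 higher, 25 lower) and -0.03 without mouse 4 of SO (18 higher, 22 lower), and without mouse 2 of PF it was 0.12. The sum of 7 fibroblast markers lay between 954 and 1420 CPM in PF and between 721 and 946 CPM in SO, and its part in the cell division values was not tested. LO was below SO for 37 genes at a median of -0.27, with 0 genes passing (0% of all genes) and 0 at an unadjusted p under 0.05, where 3.99% of all genes were. Without mouse 2 of LO this median was -0.63, without mouse 5 of SO -0.42, without mouse 5 of LO -0.18 and without mouse 3 of LO -0.10. The smallest p between LO and SO was that of Mcm7, at -0.22 (SE 0.12, edgeR adjusted p = 1). Between PF and SO it was that of Mcm5, at 0.31 (SE 0.24, edgeR adjusted p = 0.978). Each group stands in 2 of these 3 comparisons, which are therefore not independent.

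At 32 weeks the mean score was 2.63 ± 0.36 in SO, 2.19 ± 0.46 in LO and 2.20 ± 0.27 in PF (SD, n = 5). PF lay below SO for 39 of the 40 genes, with E2f1 the exception, at a median log2 fold change of -0.47 against -0.02 over all genes. None of the 40 passed the test (0% of all genes passed), and the count with DESeq2 was also 0, where 0.464% of all genes passed. At an unadjusted p under 0.05, 9 genes were lower in PF, where 6.59% of all genes were. These were Cdc6, Mcm3, Mcm4, Mcm5, Mad2l1, Kif11, Kif23, Nusap1 and Foxm1.

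Cdc6, which loads the MCM helicase with Cdt1, had the smallest p of this comparison. It was at 2.22, 1.89, 1.58, 2.30 and 1.79 CPM in PF and at 3.08, 2.77, 2.75, 3.81 and 4.12 CPM in SO. All PF mice lay below all SO mice. The log2 fold change was -0.75 (SE 0.28, edgeR adjusted p = 0.298).

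Foxm1, a transcription factor of mitotic genes, was at 3.35, 2.80, 2.10, 2.70 and 2.46 CPM in PF and at 3.86, 3.36, 3.64, 6.32 and 5.15 CPM in SO. The groups did not overlap, though the highest PF mouse and the lowest SO mouse differed by little. The log2 fold change was -0.73 (SE 0.31, edgeR adjusted p = 0.349). Mcm5 was at 8.17, 6.42, 4.88, 5.17 and 6.27 CPM in PF and at 8.44, 6.34, 8.72, 12.1 and 10.9 CPM in SO, with a log2 fold change of -0.59 (SE 0.24, edgeR adjusted p = 0.344). Mouse 2 of SO lay among the PF mice for this gene.

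In all, 6 of the 40 genes had every PF mouse below every SO mouse at 32 weeks, where 1.2% of all genes did. They were Foxm1, Cdc6, Mcm4, Mki67, Cenpf, a centromere protein, and Kif23, a motor of cell separation. Kif23 had the largest difference of the 40, at 1.92, 2.20, 1.43, 1.34 and 2.14 CPM in PF and 2.47, 2.44, 3, 5.42 and 3.53 CPM in SO, a log2 fold change of -0.90 (SE 0.38, edgeR adjusted p = 0.349). Since the genes moved together, these 6 are not separate observations. By role, the median log2 fold change was -0.67 for the spindle motors and microtubule proteins, -0.60 for the chromosome and centromere proteins and -0.55 for the mitotic kinases. It was -0.43 for the cyclins and Cdk1, -0.39 for the spindle checkpoint and anaphase genes and -0.30 for origin licensing. For the transcription factors it was -0.28 and for DNA and nucleotide synthesis -0.18.

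Mouse 4 of SO weighed on this difference. Without it, the median log2 fold change of PF against SO was -0.24, with 37 genes lower. Without mouse 1 of PF it was -0.65, and without the mice numbered 1 of all groups it was -0.74, with 0 genes passing the test in each case. The same SO mouse had the highest sums of the 10 T cell markers (61.4 CPM) and of the 8 B cell markers (117 CPM) of all 30 mice, where the medians of its group were 15.8 and 29.2 CPM. In PF at 32 weeks the T cell sum lay between 9.43 and 23.6 CPM and the B cell sum between 13.0 and 34.7 CPM. No T cell or B cell marker was at 0 in all mice of a group, and their part in the cell division values was not tested. The sum of 5 markers of the basal epithelium also differed, lying between 238 and 296 CPM in PF and between 303 and 386 CPM in SO, with no overlap and with no marker at 0 in all mice of a group. Its part in the difference was not tested.

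LO lay below SO for all 40 genes at 32 weeks, at a median log2 fold change of -0.45 against -0.01 over all genes. None passed the test (0% of all genes passed), and 0 did with DESeq2, where 0.0241% of all genes passed. At an unadjusted p under 0.05, 5 genes were lower in LO, namely Ccne1, Bub1, Aurkb, Top2a and Rrm2, where 2.19% of all genes were. Without mouse 4 of SO the median was -0.19, with 39 genes lower. PF and LO were each compared with the same 5 SO mice here, so that both differences share that group.

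Ccne1 (GRCm38 chromosome 7, 38097984 to 38107534, minus strand), the cyclin E1 that starts replication, gave the smallest p between diets. It was at 1.65, 2.18, 1.75, 1.44 and 2.22 CPM in LO, at 2.89, 2.53, 2.94, 3.72 and 3.18 CPM in SO and at 3.62, 2.54, 2.10, 2.59 and 2.26 CPM in PF. All LO mice lay below all SO mice, which 0.385% of all genes showed, and Ccne1 was the 1 gene of the 40 that did. Its log2 fold change was -0.72 for LO against SO (SE 0.23, unadjusted p = 0.00344, edgeR adjusted p = 1). Against LO, PF was higher by 0.51 on the log2 scale (SE 0.23, edgeR adjusted p = 0.487), and 1 of the 5 PF mice fell within the LO range.

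Bub1 differed by -0.96 on the log2 scale between LO and SO at 32 weeks (SE 0.40) and Aurkb, the kinase of the chromosomal passenger complex, by -0.79 (SE 0.34), each with an adjusted p of 1 (edgeR). The largest Bub1 level, 3.36 CPM, was again that of mouse 4 of SO. Without that mouse the log2 fold change of Bub1 was -0.62 and that of Aurkb -0.50. PF and LO at 32 weeks differed by a median log2 fold change of -0.05, with 17 genes higher and 23 lower in PF and 0 passing the test (0.012% of all genes passed). Ccne1 was the 1 gene at an unadjusted p under 0.05 there, higher in PF, where 4.44% of all genes were. This median, too, changed direction, to 0.16 without mouse 5 of LO (28 higher, 12 lower), while it was -0.18 without mouse 1 of PF and -0.15 without mouse 4 of LO. The basal epithelium sum lay between 313 and 461 CPM in LO, above all PF mice, and its part was not tested.

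From 12 to 32 weeks the median log2 fold change of the 40 genes in SO was 0.44, against -0.0044 over all genes, with 38 genes higher and 2 lower, Mcm2 and E2f1. Mcm4 alone passed the test, so that 1 of 40 genes rose, where 6.46% of all genes passed and 5.25% rose. DESeq2 passed Mcm4 and Mcm6, where 9.12% of all genes passed. At an unadjusted p under 0.05, 7 genes were higher, where 12.6% of all genes were: Mcm3, Mcm4, Mcm5, Mcm6, Ccna2, Bub1 and Bub1b. Without mouse 4 of SO at 32 weeks the median was 0.24, with 36 genes higher.

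The sums of T cell, B cell and macrophage markers also differed between the SO groups. The summed level of 10 T cell markers lay between 4.03 and 6.57 CPM at 12 weeks and between 11.7 and 61.4 CPM at 32 weeks. The sum of 8 B cell markers lay between 2.21 and 6.69 CPM and between 7.33 and 117 CPM, and that of 9 macrophage markers between 140 and 195 CPM and between 204 and 482 CPM. The groups overlapped in none of the 3 sums, no marker of these lists was at 0 in all mice of a group, and the part of these cells in the cell division values was not tested.

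Mcm4 (GRCm38 chromosome 16, 15623897 to 15637400, minus strand), a subunit of the MCM helicase, was at 14.8, 14.3, 13.3, 12.9 and 12.3 CPM in SO at 12 weeks and at 16.0, 16.1, 16.3, 21.5 and 17.9 CPM at 32 weeks. The lowest mouse at 32 weeks lay above the highest at 12 weeks, a separation that 5.15% of all genes showed and Mcm6 shared. The log2 fold change was 0.38 (SE 0.11, edgeR adjusted p = 0.0361). The adjusted p was 0.0152 with DESeq2. Mouse 4 weighed on this too, as the log2 fold change without it was 0.29, and the call was lost in 7 of the 10 fits that left out 1 SO mouse.

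Mcm6, another subunit, was at 25.5, 24.3, 20.05, 19.0 and 17.9 CPM in SO at 12 weeks and at 26.4, 28.1, 27.6, 35.5 and 37.7 CPM at 32 weeks. The groups did not overlap, but the log2 fold change of 0.54 missed the threshold (SE 0.18, edgeR adjusted p = 0.0759). It passed with DESeq2 (adjusted p = 0.0459). Mcm3 was at 7.71, 6.09, 5.04, 4.66 and 4.94 CPM and at 6.07, 7.56, 8.16, 12.0 and 10.4 CPM, with a log2 fold change of 0.64 (SE 0.25, edgeR adjusted p = 0.127). For Mcm3 the groups overlapped.

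The remaining subunits of the helicase differed among themselves in SO. Mcm5 had a log2 fold change of 0.61, Mcm7 of 0.19 and Mcm2 of -0.07, and none of them passed the test. Mcm2 was at 30.1, 21.3, 19.3, 20.7 and 27.3 CPM at 12 weeks and at 28.9, 18.1, 20.97, 21.4 and 23.7 CPM at 32 weeks. The highest Mcm2 of each SO group was that of mouse 1.

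**Figure D4:**
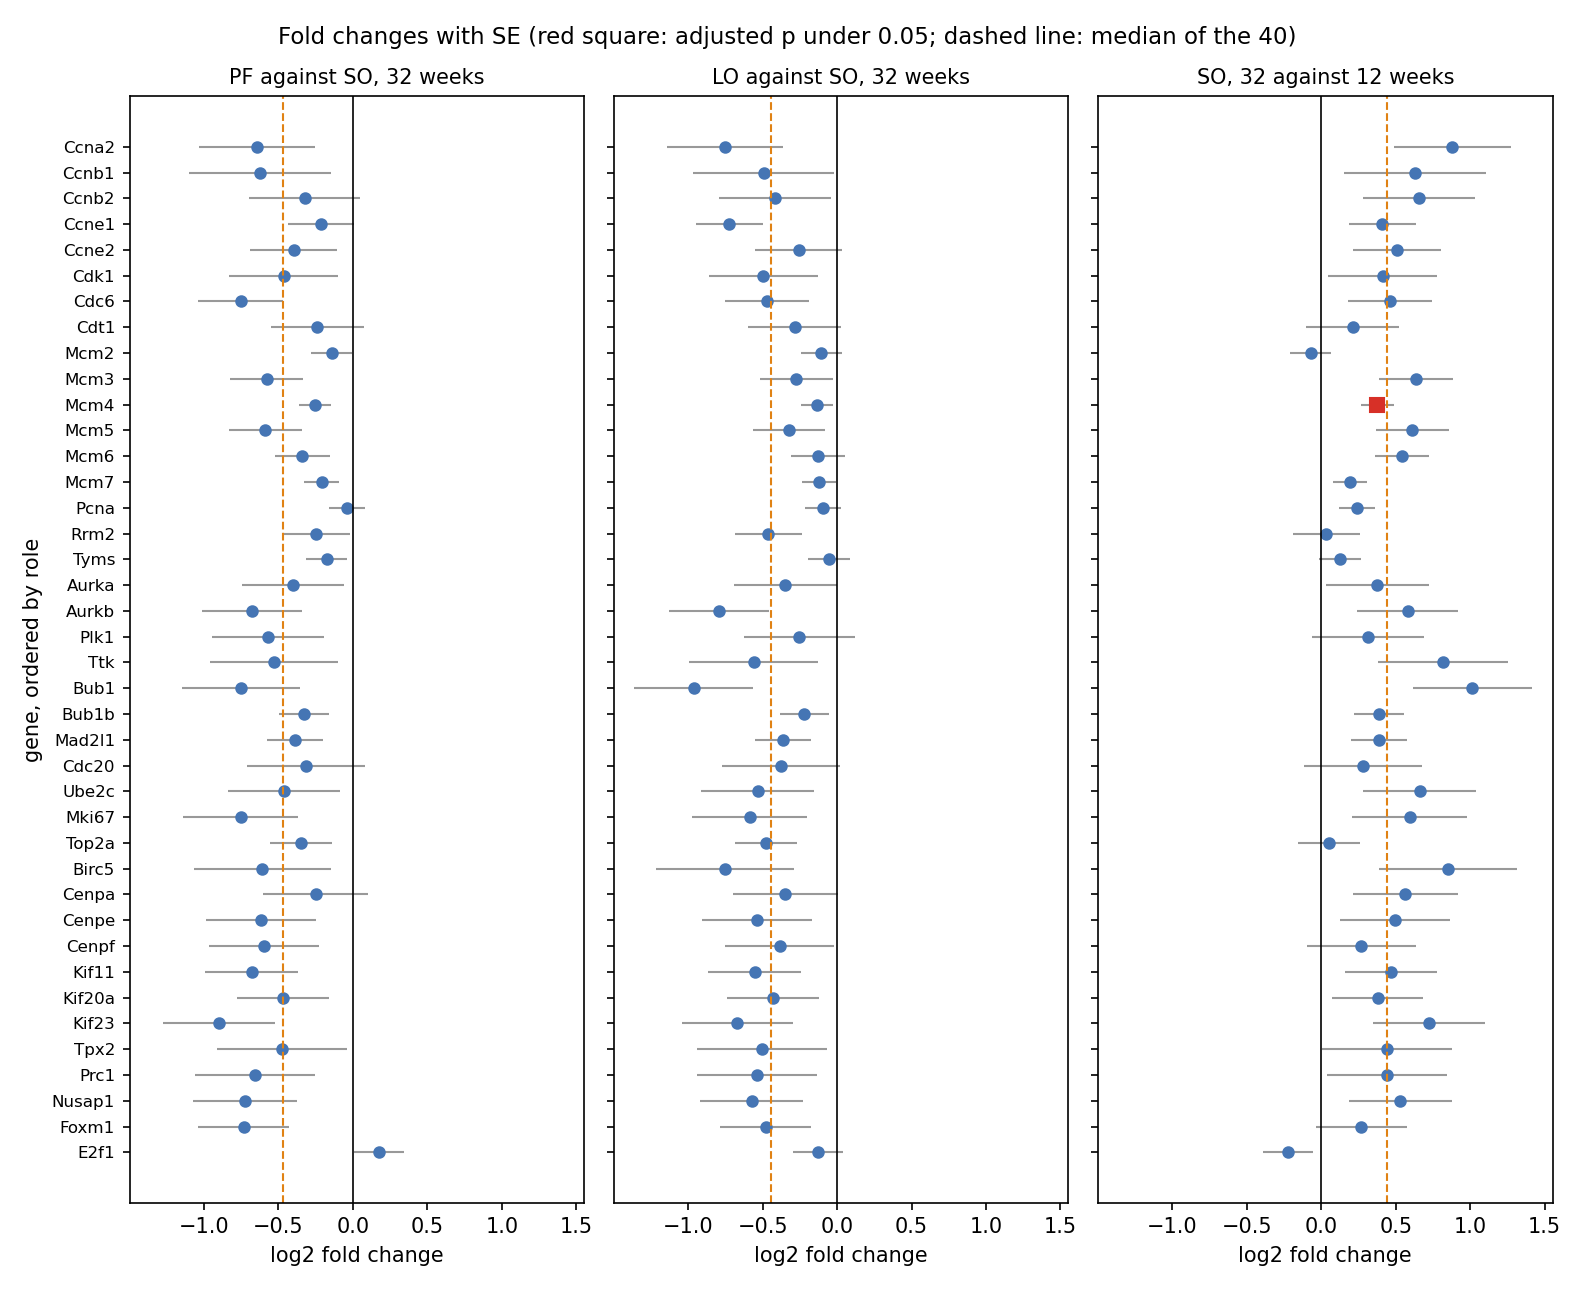
Log2 fold change (x axis) with its SE (bars) of each of the 40 genes (y axis, ordered by role) for PF against SO and LO against SO at 32 weeks and for SO at 32 against 12 weeks. Mcm4 in SO between times is the single gene past the threshold (red square), and the dashed lines mark medians of -0.47, -0.45 and 0.44.

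In LO, 34 of the 40 genes were higher at 32 than at 12 weeks, at a median log2 fold change of 0.33 against -0.01 over all genes, and 0 passed the test, where 2.7% of all genes did. Mcm3, Mcm6 and Mcm7 were higher at an unadjusted p under 0.05, where 11.4% of all genes were. Mcm7 was at 14.2, 19.9, 14.5, 16.0 and 13.7 CPM at 12 weeks and at 18.9, 18.2, 18.9, 18.3 and 21.7 CPM at 32 weeks, a log2 fold change of 0.29 (SE 0.12, edgeR adjusted p = 0.145). Mouse 2 at 12 weeks was the 1 mouse that lay among the older ones. Mcm7 shares exon bases with Cops6, Ap4m1 and microRNA genes, so that its count is less certain. Without mouse 2 of LO at 12 weeks the median of the 40 was 0.75, without mouse 3 it was 0.17, and without mouse 5 at 32 weeks it was 0.11. The sum of 8 plasma cell markers lay between 579 and 932 CPM at 12 weeks and between 1021 and 8946 CPM at 32 weeks in LO, and its part was not tested.

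In PF the median log2 fold change of the 40 genes was -0.09, with 13 higher and 27 lower at 32 weeks and 0 passing the test, where 0.0301% of all genes did. No gene reached an unadjusted p under 0.05, where 10.2% of all genes did. The median was 0.05 without mouse 5 at 12 weeks (27 higher, 13 lower), -0.20 without mouse 2 at 12 weeks and -0.23 without mouse 1 at 32 weeks. Top2a had the smallest p, at 24.9, 30.5, 39.4, 40.4 and 39.2 CPM at 12 weeks and 29.96, 22.8, 27.99, 26.3 and 28.9 CPM at 32 weeks, a log2 fold change of -0.36 (SE 0.21, edgeR adjusted p = 0.578). The groups overlapped. Pcna was at 29.5, 26.3, 30.9, 28.9 and 32.9 CPM at 12 weeks and at 44.1, 27.97, 31.1, 27.6 and 33.5 CPM at 32 weeks, a log2 fold change of 0.15 (SE 0.12, edgeR adjusted p = 0.702).

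Whether the change with time differed between diets was tested directly. The change in PF was below that in SO for 39 of the 40 genes, at a median difference of -0.53 on the log2 scale, and below that in LO for 37, at a median of -0.41. None of the 40 passed the test for either pair or for LO against SO (median -0.12), and 0% of all genes did. These medians moved with single mice. That of PF against SO was -0.27 without mouse 4 of SO at 32 weeks. That of PF against LO was -0.77 without mouse 2 and -0.21 without mouse 3 of LO at 12 weeks, -0.16 without mouse 5 of LO at 32 weeks and -0.25 without mouse 5 of PF at 12 weeks. That of LO against SO changed direction, to 0.21 without mouse 2 of LO at 12 weeks (31 higher, 9 lower), 0.05 without mouse 4 of SO at 32 weeks and 0.02 without mouse 4 of LO at 32 weeks (22 higher, 18 lower each), and it was -0.33 without mouse 5 of LO at 32 weeks. With DESeq2, too, none of the 40 passed in any comparison other than SO between times. Mcm5 had the largest of these differences at an unadjusted p under 0.05, -0.90 for PF against SO (SE 0.34, edgeR adjusted p = 0.366), and Mcm3 followed with -0.89 (SE 0.35, edgeR adjusted p = 0.379). At an unadjusted p under 0.05 there were 2 genes lower for PF against SO, where 6.65% of all genes were, 3 for PF against LO, where 4.19% were, and 1 for LO against SO, where 2.23% were.

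Cdk1, the kinase of mitotic entry, gives the pattern in a mitotic gene. It was at 3.35, 9.25, 1.83, 5.88 and 2.83 CPM in LO, 7.34, 7.23, 7.18, 4.35 and 3.55 CPM in SO and 3.63, 4.45, 7.13, 7.04 and 8.76 CPM in PF at 12 weeks. At 32 weeks it was at 5.23, 6.07, 4.66, 2.82 and 9.18 CPM in LO, 5.22, 5.21, 6.22, 13.6 and 9.12 CPM in SO and 8.77, 5.11, 5.03, 4.74 and 4.87 CPM in PF. All groups overlapped, and the lowest and highest levels were those of the mice with the lowest and highest scores.

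Of 122 further genes of the cell cycle, 121 could be tested, and 0 passed the test in any comparison between diets or times. Of all genes, at most 0.012% passed it between diets, and 2.7% in LO, 6.46% in SO and 0.0301% in PF between times. At an unadjusted p under 0.05, 26 of the 121 were lower and 1 was higher in PF than in SO at 32 weeks, where 6.59% of all genes were lower. There were 11 lower and 1 higher in LO than in SO at 32 weeks, where 2.19% of all genes were lower, and 22 higher and 1 lower in SO at 32 than at 12 weeks, where 12.6% of all genes were higher. DESeq2 passed 3 of the 121 in LO between times (Ccnd2, Cdkn1a and Lin52), where 6.47% of all genes passed, and 3 in SO between times (Cdc25b, Ncapg2 and Pola1), where 9.12% did. It passed 2 between PF and LO at 32 weeks (Ccnd1 and Ccnd2), where 0.464% of all genes passed, and 0 in each of the other comparisons. Cdkn1a, which encodes the kinase inhibitor p21, was higher in PF than in SO at 12 weeks by 0.65 on the log2 scale (SE 0.21, edgeR adjusted p = 0.261), and higher at 32 than at 12 weeks in LO by 0.70 (SE 0.21, edgeR adjusted p = 0.0596). Cyclins D1 and D2, which act before replication starts, had the smallest p of this list between PF and LO at 32 weeks. Ccnd1 differed by -0.53 (SE 0.13) and Ccnd2 by -0.94 (SE 0.23), both with an adjusted p of 0.177 (edgeR). Between PF and SO at 32 weeks the smallest p was that of Cks1b, the 1 gene higher in PF, by 0.38 (SE 0.12, edgeR adjusted p = 0.250). E2f8, a repressor of the E2F family, was next and differed by -1.20 (SE 0.40, edgeR adjusted p = 0.267). Prim1, a subunit of the primase that starts each DNA strand, was higher in PF than in LO at 12 weeks by 0.44 (SE 0.13, edgeR adjusted p = 0.381). In SO from 12 to 32 weeks the smallest p values were those of the condensin gene Ncapg2, 0.74 (SE 0.24, edgeR adjusted p = 0.0653), and the polymerase gene Pola1, 0.51 (SE 0.17, edgeR adjusted p = 0.0659).

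Cdt1 (GRCm38 chromosome 8, 122568015 to 122573554, plus strand) followed the mouse number in place of the score. It was at 4.40, 2.94, 2.23, 2.42 and 2.19 CPM in LO, 5.26, 2.34, 2.47, 1.96 and 3.61 CPM in SO and 3.96, 2.44, 2.80, 2.98 and 3.61 CPM in PF at 12 weeks. At 32 weeks it was at 5.23, 2.79, 2.36, 1.93 and 2.52 CPM in LO, 6.00, 2.29, 3.20, 3.30 and 3.32 CPM in SO and 5.65, 2.49, 2.33, 2.16 and 2.67 CPM in PF. Mouse 1 was the highest of its group in 6 of 6 groups. Among mice 2 to 5, the mouse of lowest score also had the lowest Cdt1 in PF at both times and in LO and SO at 32 weeks. In LO and SO at 12 weeks it did not. No correlation without the mice numbered 1 was computed. The mean was 5.08 CPM over the 6 mice numbered 1 and 2.64 CPM over the other 24, a log2 fold change of 0.95 (SE 0.11, edgeR adjusted p = 6.85e-08).

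With Cdt1, 2 other genes of the 40 differed by mouse number: Plk1, by 0.65 on the log2 scale (SE 0.23, edgeR adjusted p = 0.0281), and Mcm2, by 0.29 (SE 0.08, edgeR adjusted p = 0.00611). Mouse 1 had the highest Mcm2 in 4 of 6 groups and the highest Plk1 in 3. All 3 genes were higher, where 21% of all genes were higher and 16.3% lower. Among the 121 further cell cycle genes, 13 were higher and 21 lower in these mice. The higher ones included Pold1, a subunit of DNA polymerase delta (1.04, SE 0.10), the kinase inhibitor Cdkn1c (0.98, SE 0.09) and Pkmyt1, the kinase that holds Cdk1 back (0.96, SE 0.11). What set these 6 libraries apart is not given in the labels, and this term was added after the data were seen.

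**Figure D5:**
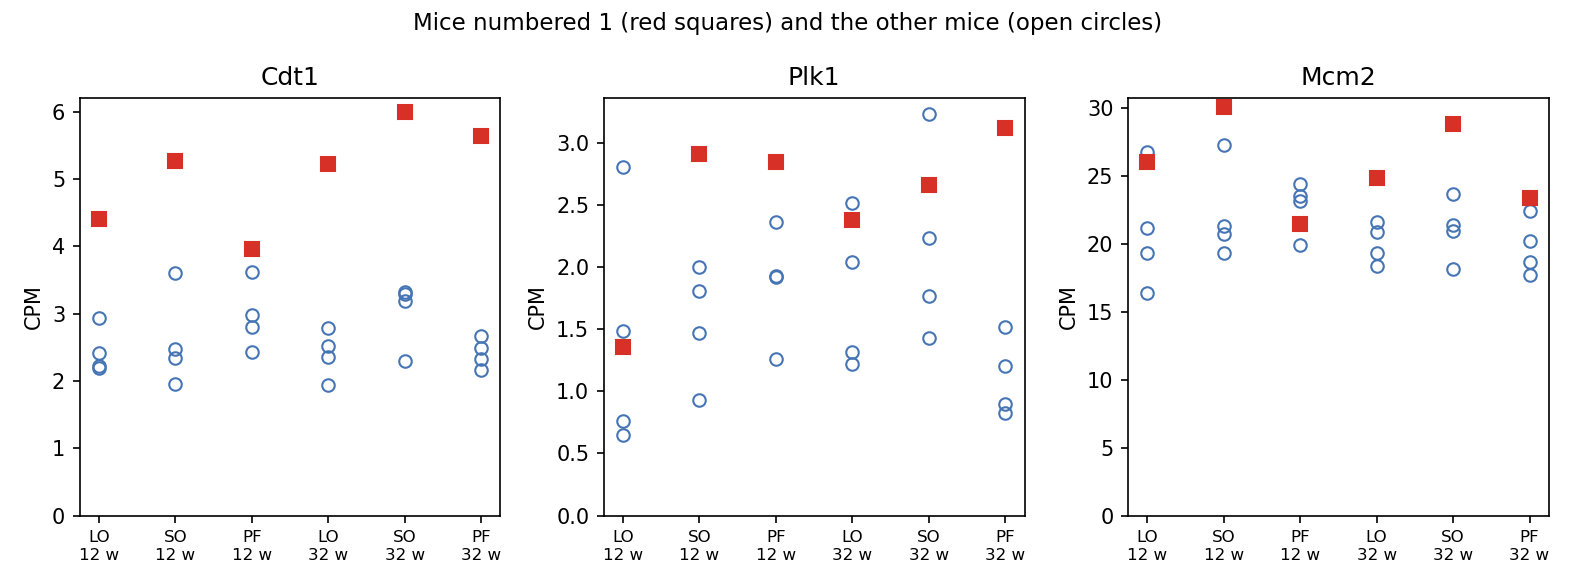
Level (y axis, CPM) of Cdt1, Plk1 and Mcm2 in the mice numbered 1 (red squares) and in the other mice (open circles) of the 6 groups (x axis). For Cdt1 the red square is the highest point in all 6 groups, between 3.96 and 6.00 CPM.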

How the data were processed

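The authors extracted RNA from the VP, prepared stranded mRNA libraries (TruSeq), sequenced them, aligned the reads and counted read pairs per gene. The submitters' processing notes name TopHat2, HTSeq, DESeq2 and GRCm38.p6, and the strand setting of the counting is not given in the sources used here. The deposited values are raw counts per gene, 1 file per mouse, without normalization. Between 23.7% and 32.2% of read pairs per mouse were assigned to no gene and were left out.

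Identifiers were matched to symbols in GENCODE M21 (37607 of 39179), and the 6 groups and mouse numbers were taken from the sample titles. Genes were filtered with filterByExpr of edgeR 4.0.16 in R 4.3.3, scaled by TMM and tested two-sided by its quasi-likelihood method, all 30 mice in 1 fit. SEs were derived from the F statistic. P-values were adjusted over 16605 genes by the Benjamini-Hochberg method, with a threshold of 0.05. Scores (log2 CPM, prior count 2) were not tested. DESeq2 1.42.0, other filters, scalings, thresholds and samples were alternatives, and the fit was tested on simulated data. The members and lists were chosen with earlier results of these data known. Named genes were the 3 with the smallest p in each comparison of diets or times, those passing the test and a set list of markers, and for other cell cycle genes the 2 with the smallest p, of which some are given. Genes outside this rule are named where a count or a rank turned on them, after their values were seen. Exons of 11 of the 40 genes overlap another gene, on the opposite strand for 9, so that these counts are less certain. Nothing states that mice of a group came from separate litters or cages. The p-values set each difference against the spread between these mice, estimated over all 6 groups in 1 fit.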

Additional observations from a re-analysis of the deposited data

Results flagged for a closer look

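In 108 groups of 5 mice, 7 had a single mouse set apart by a gap of over 0.71 of the range of its group (Dixon's criterion), and chance gives about 1 in 20. Mouse 1 of PF at 32 weeks held 5 of them, which are not independent: its score over the 40 genes was 2.67 (next 2.16), that of the cyclins and Cdk1 2.20 (next 1.54), that of the spindle checkpoint and anaphase genes 2.14 (next 1.51), that of the transcription factors 2.70 (next 2.21), and its Cdk1 level 8.77 CPM (next 5.11 CPM). Mouse 2 of LO at 12 weeks had a Top2a level of 51.8 CPM (next 27.8 CPM). Mouse 2 of PF at 12 weeks had the lowest transcription factor score of its group, 2.08 (next 2.55).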

How the results depend on the processing

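The number of the 40 genes past the threshold was 0 in 11 of the 12 comparisons under every alternative run. In SO between times it was 1, and it became 0 with no filter on low counts (Mcm4 adjusted p = 0.0687), 2 with DESeq2, with an adjusted p of 0.1, with the SO groups alone or without the mice numbered 1 (Mcm3 and Mcm4), and 4 with DESeq2 at 0.1. With each mouse left out it was between 0 and 2. Of all genes, 6.46% passed in SO between times in the main fit and 9.12% with DESeq2. For edgeR at 0.1 and with 1 mouse left out, the numbers of all genes follow below. For the other settings they are not given, so these counts of the 40 cannot be set against a share of all genes. Mcm4 kept its call without mouse 1, 2 or 3 of SO at 32 weeks and lost it without any other SO mouse. For the 3 genes of smallest p in each comparison between diets or times, the direction was kept under the alternatives run, and the other genes were not followed through them. The settings at 0.1 with DESeq2 and without the mice numbered 1 were chosen after the data were seen. Without the mice numbered 1, the medians of the 40 genes moved as well. At 12 weeks the log2 fold change was 0.15 for PF against SO, 0.33 for PF against LO and -0.12 for LO against SO. At 32 weeks it was -0.74, -0.23 and -0.45 in the same order. Between times it was 0.34 in LO, 0.62 in SO and -0.27 in PF. For the change with time it was -0.89 for PF against SO, -0.55 for PF against LO and -0.30 for LO against SO.

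Over all genes the counts moved more. At 12 weeks DESeq2 called 113 genes between PF and SO and 50 between PF and LO, where edgeR called 0 and 2. At 32 weeks it called 77 between PF and SO, 77 between PF and LO, and 4 between LO and SO, where edgeR called 0, 2 and 0. Between times it called 1075 in LO and 51 in PF, where edgeR called 448 and 5, and for the change with time 43 between PF and SO and 14 between PF and LO, where edgeR called 0. At an adjusted p of 0.1 edgeR called 1335 in LO, 1742 in SO and 18 in PF between times. With only the groups of the comparison in the fit, 57 genes were called in LO between times. Between times, leaving out 1 mouse gave 47 to 1043 genes in LO (47 without mouse 3 at 12 weeks) and 226 to 1556 in SO (226 without mouse 4 at 32 weeks).

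With a replicate block (the mouse number as a term), the number of the 40 genes past the threshold was 1 in SO between times and 0 elsewhere. Mice with the number 1 deviated together across groups of the 12 and 32 weeks (r between 0.28 and 0.55), and those with other numbers did not in every pair, so the numbers were not taken as pairs.

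The groups overlapped in score in all 9 comparisons between diets or times. With 1 mouse left out, the score differences lay between 0.23 and 0.69 for PF against LO at 12 weeks, -0.55 and -0.29 for PF against SO, -0.60 and -0.29 for LO against SO at 32 weeks, and 0.29 and 0.51 for SO between times.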
